A study of Mus musculus with 9 samples.

Results

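The genes described here encode the proteins of the cytosolic ribosome. They were chosen by symbol, as genes named Rpl or Rps with a number and at most 1 closing letter a, l or x, together with Rplp0, Rplp1, Rplp2 and Rpsa, without pseudogene names and without the Rps6k kinases. The rule found 81 of the 18875 genes in the deposited table, 50 for the large ribosomal subunit and 31 for the small subunit. Tests covered the 78 with at least 1 TPM in 3 or more libraries, 47 of the large and all 31 of the small subunit. The 3 genes left out were Rpl10l, Rpl32l and Rpl39l. TPM is the share of a library's transcripts that belongs to a gene, corrected for transcript length and scaled to the same total in each library.

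The 9 libraries, 3 to a group, were made from mRNA of whole lungs of WT BALB/c mice, an inbred strain. In the long-term group PM2.5, fine airborne particulate matter, was given into the nose at 10 mg/kg on 6 occasions spaced 3 days apart, and in the short-term group on 1 occasion at the same dose. The mice of the PBS group are labelled as exposed to PBS on the long-term schedule, so that no PBS sample here matches the schedule of the short-term group. When the lungs were taken after the last dose is not stated in the labels. Nor do they state whether each sample of a group is a separate mouse, and p-values therefore cover the spread among these samples, which may be technical.

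A ribosome holds a fixed set of proteins, nearly all in 1 copy, and cells make the mRNAs for them at high and similar levels. Most of these mRNAs begin with an unbroken run of pyrimidines (C and U), the terminal oligopyrimidine or TOP motif, through which the mTOR kinase controls how strongly they are translated. In lung as in other tissues several of these genes serve as reference genes for PCR. Many have intronless pseudogene copies of nearly the same sequence, and reads can be assigned to either.

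The sequences around the annotated starts are shown because mRNAs of these genes are known to begin with a pyrimidine run. The run counted here could lie anywhere within 50 bases of the annotated start, so it need not be the TOP motif. RefSeq start sequences (build GRCm38.p6) were matched for 61 of the 81 genes. A pyrimidine run of at least 8 bases lay within 50 bases of the start in 50 of the 61 genes (82%), against 33.3% of the 14874 genes of the table with such a sequence, and the median of the longest run was 10 bases against 6 bases. The motif ACTTCCGG, searched on both strands over the 250 bases before and 50 bases after the start, was present in 12 of the 61 genes (19.7%) and in 6.15% of all genes with a sequence. TATAAA, searched on the gene's strand within 50 bases of the start, was present in 4 (6.56%) and in 3.35%. Windows of 30 bases are given on the strand of the gene, with the longest pyrimidine run in capitals. Relative to the annotated start, the first base of that run was at 41 for Rpl41 and Rps2, 26 for Rps15 and 27 for Rpl4. It was at -5 for Rplp2, -7 for Rpl35, -14 for Rpl7a and -20 for Rpl5. Rpl41, Rps15 and Rpl35 are shown as abundant members, Rpl7a for its run of 21 bases, Rps2 and Rplp2 from the members with the largest short-term differences, and Rpl4 and Rpl5 from those with the smallest.
Rpl41 (chr10:128549119-128549148, minus strand): cgccattaaatagcagtaggCCTCCCTCTC
Rps15 (chr10:80292447-80292476, plus strand): cagcccgtaCTTCCTTTTCCgagtaaccgc
Rpl35 (chr2:39005115-39005144, minus strand): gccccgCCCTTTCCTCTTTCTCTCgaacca
Rpl7a (chr2:26910789-26910818, plus strand): acaaTTCCCTCTTCTTTCTTTCTCCagcag
Rps2 (chr17:24720083-24720112, plus strand): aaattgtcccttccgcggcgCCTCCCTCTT
Rplp2 (chr7:141447636-141447665, plus strand): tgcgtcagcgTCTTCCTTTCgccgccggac
Rpl4 (chr9:64173406-64173435, plus strand): agcgtggCCTTCTCCTCTCCCCgtcatggt
Rpl5 (chr5:107900498-107900527, plus strand): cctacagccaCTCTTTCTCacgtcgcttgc
The runs of Rpl41 and Rps2 reach the end of the sequence searched and may be longer. Among the matched genes the longest run had a median of 10 bases in the 15 with the largest short-term difference from PBS and 12 bases in the 15 with the smallest. A run of at least 8 bases was present in 12 and 13 of them, in the same order.

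Ribosomal protein genes were among the most abundant genes of the lung. Averaged over all 9 libraries, 44 of the 78 tested genes had a level of at least 1000 TPM and 68 had at least 500 TPM, with a median of 1136 TPM. The highest levels were those of Rpl41, the smallest ribosomal protein, at 5351 TPM, Rplp1 of the ribosomal stalk at 4691 TPM, Rps15 at 4582 TPM, Rpl23a at 3184 TPM and Rpl35 at 2880 TPM. Only 4 tested genes were below 100 TPM, namely Rps15a at 53.8 TPM, Rpl23 at 36.5 TPM, Rps6 at 8.15 TPM and Rpl3l at 1.34 TPM. Rpl3l is the paralog of Rpl3 made in heart and skeletal muscle, and the paralogs Rpl10l and Rpl39l are known from the testis. Rpl10l had at most 0.24 TPM, Rpl32l at most 0.30 TPM and Rpl39l at most 1.04 TPM in any library.

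The low level of Rps6, the ribosomal protein phosphorylated by ribosomal protein kinases downstream of mTOR, stood beside a high level in the row of its copy Rps6-ps4. Rps6-ps4 had 1067, 912 and 874 TPM in long-term PM2.5 lungs, 1071, 1363 and 1133 TPM in short-term PM2.5 lungs, and 847, 867 and 847 TPM in PBS lungs, against 5.82 to 11.1 TPM for Rps6 itself. Rpl31 shared its level with Rpl31-ps12 in the same way, at 387 to 856 TPM for Rpl31 and 1011 to 1896 TPM for the copy. For Rpl34 the division differed between libraries. Rpl34-ps1 had 544 TPM in PBS replicate 2 and 0.78 to 3.25 TPM in the other 8 libraries, and Rpl34 had 294 TPM in PBS replicate 2 against 693 to 1128 TPM elsewhere. The sum of both rows in PBS replicate 2 was 839 TPM, inside the range of 695 to 1130 TPM in the other libraries. Levels of single genes with such copies are uncertain, and these 3 pairs are named after their values were seen.

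**Figure D1:**
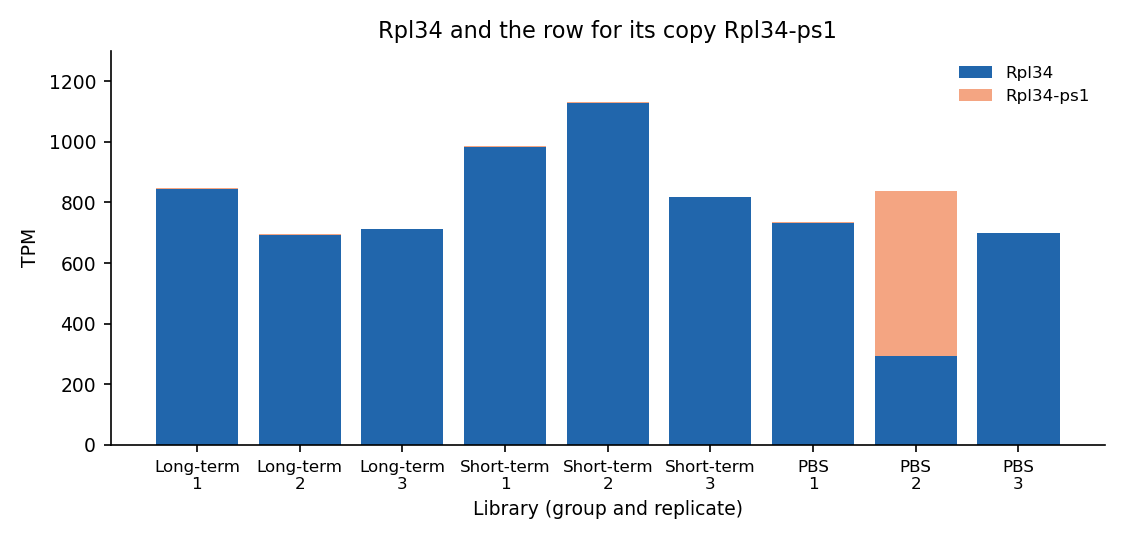
TPM of Rpl34 (blue) and of the row for its copy Rpl34-ps1 (orange), stacked for each of the 9 libraries by group and replicate. PBS replicate 2 alone has a visible share in the copy, 544 TPM, and the stacked height of 839 TPM there lies within the range of the other libraries.

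Together the 81 genes held 8.68%, 8.70% and 8.06% of the summed TPM in the long-term libraries, 15.5%, 11.4% and 10.9% in those of the short-term group, and 9.06%, 7.69% and 8.96% in those given PBS. The means were 8.48 ± 0.364% in the long-term group, 12.6 ± 2.52% in the short-term group and 8.57 ± 0.764% in the PBS group (SD, n = 3 each). All 3 short-term libraries lay above the other 6, and the long-term and PBS libraries overlapped. Genes of the large subunit held 1.43 to 1.56 times the TPM of those of the small subunit in every library, and this ratio overlapped between the 3 groups.

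**Figure D2:**
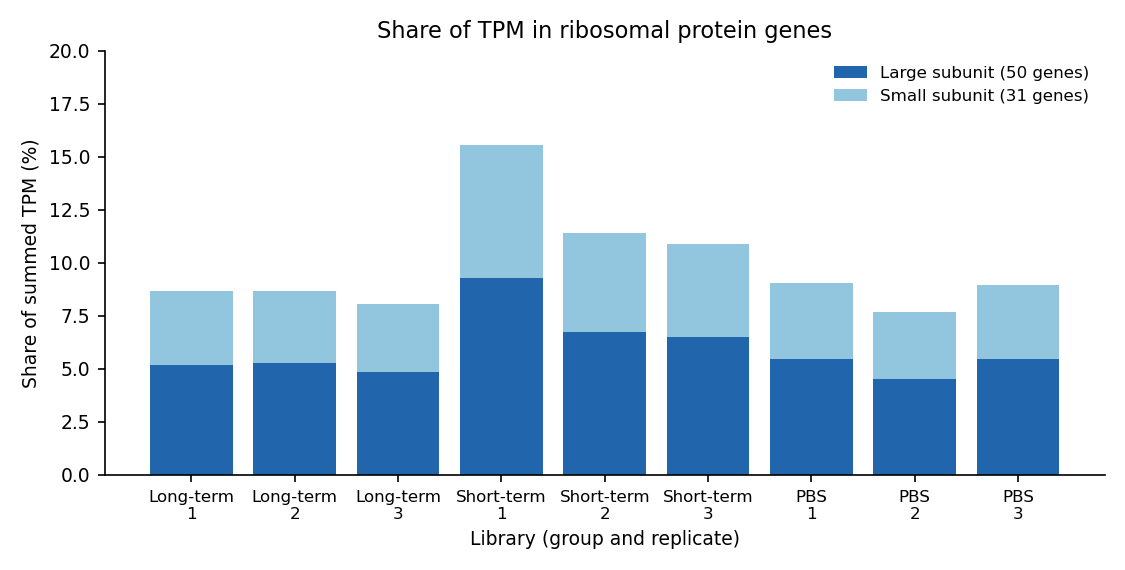
Share of the summed TPM held by ribosomal protein genes in each library, divided into large subunit (dark blue, 50 genes) and small subunit (light blue, 31 genes). The short-term bars stand at 10.9% to 15.5% and the long-term and PBS bars at 7.69% to 9.06%.

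Some facts of the libraries move with these values. In the short-term libraries long transcripts were low: the median log2 difference from the PBS mean of the longest decile of genes minus that of the shortest decile was -1.23, -0.61 and -0.78 in replicates 1 to 3, against -0.15 to -0.11 in the long-term and -0.03 to 0.02 in the PBS libraries. The number of genes that reached 1 TPM was 12560 to 13414 in them, 13829 to 13930 after long-term PM2.5 and 13534 to 13615 after PBS. Scgb1a1, the club cell secretoglobin and the most abundant gene of the lung, took 15% to 17.3% of TPM in the long-term, 10.7% to 12.8% in the short-term and 14.4% to 18.1% in the PBS libraries. For the marker counts that follow, 11.7% of all tested genes were called higher and 40.3% lower in short-term against PBS lungs. In long-term against PBS lungs the shares were 9.51% and 1.72%, and in long-term against short-term lungs 43.4% and 7.08%. All 8 lung epithelial markers, Scgb1a1 among them, were tested. Their summed level was 201700 to 228500 TPM in long-term, 145500 to 168300 TPM in short-term and 195600 to 232100 TPM in PBS libraries. Against PBS 1 (12.5%) was higher and 3 (37.5%) were lower in short-term lungs. Markers of neutrophils, white blood cells that enter inflamed lung, were higher in short-term lungs than in PBS lungs for 7 of 8 genes (S100a9, log2 difference 1.47, limma adjusted p = 0.000995), with a summed level of 976, 1486 and 1104 TPM in short-term libraries and 349 to 558 TPM in PBS libraries. The 6 markers of dividing cells were all higher in long-term than in PBS lungs, at 46.6 to 82.5 summed TPM against 15.3 to 20.2 TPM. In short-term libraries they summed to 25.6, 35.5 and 27.1 TPM, and 2 of the 6 were called higher than in PBS lungs. The 6 markers of alveolar macrophages, the resident phagocytes of the airspace, were all higher in long-term than in short-term lungs, at 957 to 1260 summed TPM in long-term, 120 to 258 TPM in short-term and 307 to 590 TPM in PBS libraries; against PBS, 4 were higher in long-term and 2 lower in short-term lungs. Of 5 endothelial markers, 4 were lower in long-term and 2 lower in short-term than in PBS lungs, at 2474 to 2778, 2933 to 3353 and 3656 to 3941 summed TPM in long-term, short-term and PBS libraries. Of 4 tested red cell markers, 2 were lower in long-term and 0 called in short-term against PBS lungs, at 14110 to 24260, 28320 to 56290 and 40290 to 60290 summed TPM in long-term, short-term and PBS libraries. Of 6 B cell markers, 0 were called for long-term and 1 was lower for short-term PM2.5 against PBS, with short-term differences of -0.74 to 0.17, and of 7 tested T cell markers 0 were called for long-term PM2.5 and 1 was higher and 2 lower for short-term PM2.5. In short-term against PBS lungs the shares called lower were 37.5% of epithelial, 40% of endothelial and 33.3% of alveolar macrophage markers. For B cell and T cell markers they were 16.7% and 28.6%. None of these shares exceeded the 40.3% of all tested genes. None of the summed markers was at 0 in every library. In whole tissue, fewer cells of a type and less RNA per cell cannot be told apart, and the part of cell composition and of transcript length in the ribosomal protein values was not tested beyond the length comparisons given here. The libraries were also treated with a duplex-specific nuclease (DSN), which acts on abundant cDNA; how evenly it acted cannot be seen from TPM.

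The comparison of long-term PM2.5 with PBS addressed repeated instillation. Ribosomal protein genes did not pass the test here: by limma, 0 of the 78 tested genes passed an adjusted p of 0.05 in either direction, against 9.51% of all 13991 tested genes called higher and 1.72% called lower. At an unadjusted p under 0.05 there were 2 of 78, against 22.1% of all tested genes. The median log2 difference over the 78 genes was 0.03, equal to the 0.03 over all tested genes and below the 0.07 over other genes of equally short transcripts. The range was -0.54 to 0.49, with 49 genes above and the others at or below 0. Libraries did not overlap for 13 genes that were higher and 2 that were lower, against 25.9% and 17.4% of all tested genes.

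Rpl23, of the large subunit, and Rpl3l were the genes past the unadjusted threshold. Rpl23 had 42.7, 34.0 and 33.4 TPM in long-term lungs and 24.7, 28.2 and 29.5 TPM in PBS lungs (log2 difference 0.40 ± 0.17 SE, limma adjusted p = 0.190). All 3 long-term values lay above the PBS values. Rpl3l had 1.20, 1.22 and 0.89 TPM in long-term lungs and 2.40, 1.34 and 2.56 TPM in PBS lungs (log2 difference -0.54 ± 0.18 SE, limma adjusted p = 0.0908), a level at which the added 1 TPM shrinks the difference. The long-term and PBS values did not overlap. Rpl34 had the highest difference, 0.49 ± 0.30 (SE, limma adjusted p = 0.412), and it became -0.01 ± 0.14 (SE, limma adjusted p = 0.978) when the row of its copy was summed with it, an alternative chosen after seeing the data. Rplp0 of the stalk differed by 0.30 (limma adjusted p = 0.227), and Rpl36 had the lowest difference among abundant genes, -0.34 (limma adjusted p = 0.563).

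The comparison of short-term PM2.5 with PBS addressed a single instillation, set against PBS on the longer schedule. Ribosomal protein genes of both subunits were higher in short-term lungs: by limma, 54 of 78 rose and 1 fell, against 11.7% of all tested genes called higher and 40.3% called lower. Among the large subunit genes 31 of 47 rose and 1 fell, and among the small subunit genes 23 of 31 rose and 0 fell. The median log2 difference was 0.47, 0.47 for the large and 0.50 for the small subunit, against -0.34 over all tested genes. Under median-ratio scaling these medians were 0.82 over the members and -0.05 over all genes, with 71 members higher and 1 lower, against 24.5% and 27.8% of all tested genes. Under quantile normalization the medians were 0.13 and -0.02, with 19 members (24.4%) higher and 1 lower, against 24.9% and 26.8% of all tested genes, so that the share called higher was near that of all genes. The 19 were among the 55, and the lower call was Rps23 (-0.30, limma adjusted p = 0.0261, against 0.12 without this normalization), not Rpl3l. TPM was also rescaled without the 10 most abundant other genes, Scgb1a1 among them, an alternative added after seeing the data. The medians were then 0.38 over the members and -0.44 over all genes. In that run 45 members were higher and 1 lower, against 9.78% and 47.2% of all tested genes. Libraries did not overlap for 58 genes that were higher and 1 that was lower, against 14.5% and 45.8% of all tested genes. Leaving out PBS replicate 2, which had the lowest value of all 9 libraries for 41 of the 78 genes, left 32 higher and 1 lower, and leaving out short-term replicate 1, the highest library for 53 genes, left 48 higher and 1 lower. Shares of all tested genes in these runs were not counted. Of the 55 called genes, 16 stayed called in each alternative run, among them Rps2, Rpsa, Rplp0, Rpl41, Rpl18, Rps18, Rps6 and Rps27a. Among the called genes named here, Rplp2, Rpl13a, Rpl32, Rps27, Rpl11 and Rpl3l lost the call under quantile normalization and under no other alternative.

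**Figure D3:**
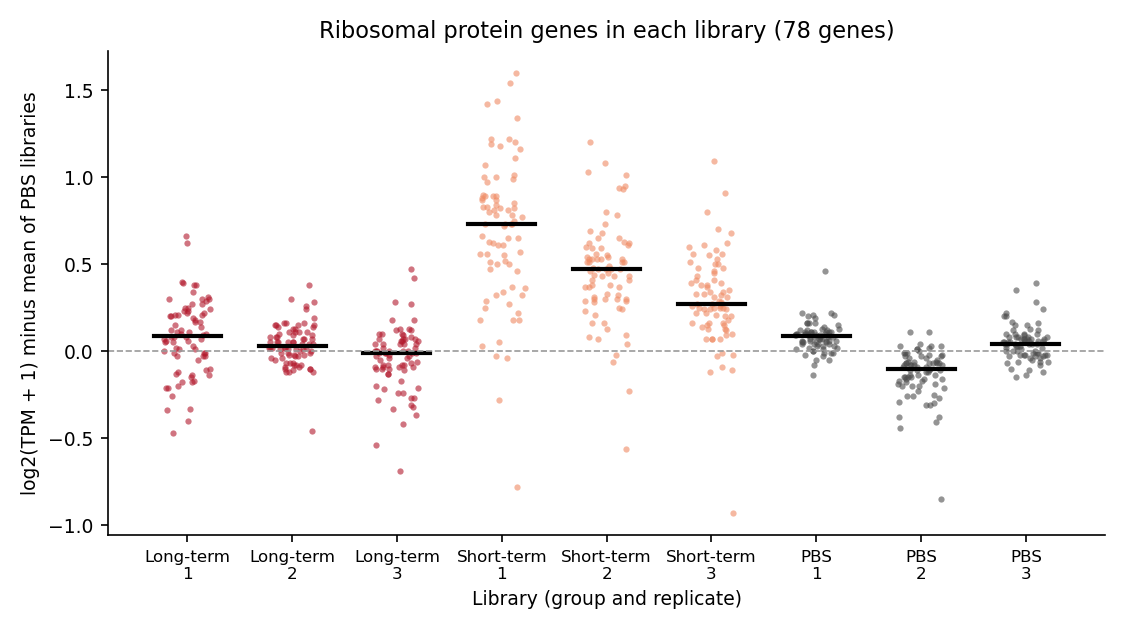
Each point is 1 of the 78 tested ribosomal protein genes in 1 library, as log2(TPM + 1) minus the mean of the 3 PBS libraries, and black lines are medians. The medians are 0.09, 0.03 and -0.01 in the long-term, 0.73, 0.47 and 0.27 in the short-term and 0.09, -0.10 and 0.04 in the PBS libraries.

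The 3 short-term libraries shared the direction and differed in size. Medians over the 78 genes, relative to the PBS mean, were 0.73, 0.47 and 0.27 in short-term replicates 1 to 3, while all tested genes had medians of -0.60, -0.13 and -0.29. In these libraries 72, 69 and 63 of the 78 genes exceeded every PBS library, and 2, 1 and 2 lay below every PBS library. In the long-term libraries 42, 23 and 16 exceeded and 5, 7 and 17 lay below every PBS library. How many of all tested genes did so in single libraries was not counted.

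Rps2 of the small subunit and Rpsa, a small subunit protein also known as the laminin receptor, had the largest differences. Rps2 (chr17:24718121-24721927) had 3929, 2966 and 2760 TPM in short-term lungs and 1339, 1223 and 1319 TPM in PBS lungs (log2 difference 1.30 ± 0.14 SE, limma adjusted p = 0.000196). Rpsa (chr9:120127766-120132369) had 2486, 1764 and 1732 TPM in short-term lungs and 932, 868 and 958 TPM in PBS lungs (log2 difference 1.10 ± 0.15 SE, limma adjusted p = 0.000519). Every short-term value of both genes was above every PBS value and every long-term value. In long-term lungs Rps2 had 1592, 1568 and 1402 TPM, all above its PBS values but not called (log2 difference 0.23, limma adjusted p = 0.412). Rpsa had 1121, 1022 and 929 TPM in long-term lungs, which overlapped its PBS values.

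The stalk of the large subunit, built from Rplp0, Rplp1 and Rplp2, recruits the elongation factors to the ribosome, and all 3 genes rose. Rplp0 (chr5:115559467-115563729) had 2174, 1809 and 1519 TPM in short-term lungs and 957, 877 and 1014 TPM in PBS lungs (log2 difference 0.94 ± 0.14 SE, limma adjusted p = 0.000705). Rplp2 had 2845, 1471 and 1430 TPM in short-term lungs and 1143, 924 and 888 TPM in PBS lungs (log2 difference 0.89 ± 0.24 SE, limma adjusted p = 0.0113). Neither gene overlapped between these groups, and for Rplp2 short-term replicate 1 stood far above the other two. Rplp1 had 9446, 5175 and 5327 TPM in short-term lungs and 4057, 3347 and 3857 TPM in PBS lungs (log2 difference 0.77, limma adjusted p = 0.0126), again with replicate 1 the highest. The call of Rplp1 was lost without PBS replicate 2 (limma adjusted p = 0.0508).

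Rpl41, whose peptide lies between the subunits, had 10495, 6296 and 6858 TPM in short-term lungs and 4239, 3283 and 4359 TPM in PBS lungs (log2 difference 0.97 ± 0.19 SE, limma adjusted p = 0.00307). All short-term values were above all PBS values. Rps27a, made as a fusion with ubiquitin, had 894, 888 and 700 TPM in short-term lungs and 551, 491 and 488 TPM in PBS lungs (log2 difference 0.69, limma adjusted p = 0.00301). Rps6 rose by 0.65 (limma adjusted p = 0.00765) and, summed with the row of its copy, by 0.47 (limma adjusted p = 0.00988). Rps27l, a paralog of Rps27 induced in the DNA damage response, rose by 0.65 (limma adjusted p = 0.00682), and Rps27 itself by 0.47 (limma adjusted p = 0.0106). Rpl34 differed by 0.86 (limma adjusted p = 0.0328), which became 0.36 (limma adjusted p = 0.055) when its copy was summed with it.

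Genes used as references in PCR were among those that rose. Rps18 had 2778, 2154 and 1939 TPM in short-term lungs and 1423, 1317 and 1437 TPM in PBS lungs (log2 difference 0.70, limma adjusted p = 0.00307). Rpl13a had 1465, 1291 and 1143 TPM in short-term lungs and 905, 788 and 885 TPM in PBS lungs (log2 difference 0.59, limma adjusted p = 0.00334). Rpl32 rose by 0.47 (limma adjusted p = 0.00885), and the short-term values of all 3 genes were above their PBS values. Rpl19 differed by 0.40 with overlapping groups (limma adjusted p = 0.106), at 2911, 1926 and 1747 TPM in short-term and 1892, 1333 and 1705 TPM in PBS lungs.

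The other 23 tested genes did not pass the test, several abundant ones among them. Rpl5, which with Rpl11 and an rRNA forms a particle that also binds Mdm2, had 418, 623 and 476 TPM in short-term lungs and 528, 518 and 473 TPM in PBS lungs (log2 difference -0.02 ± 0.15 SE, limma adjusted p = 0.912). The groups overlapped, and short-term replicate 1, the highest library for most genes, was the lowest for Rpl5. Rpl11 rose by 0.43 (limma adjusted p = 0.00896). Rpl4, which lines the exit tunnel of the new protein, had 857, 1017 and 808 TPM in short-term lungs and 936, 825 and 877 TPM in PBS lungs (log2 difference 0.02 ± 0.12 SE, limma adjusted p = 0.899). Rpl23a, also at the tunnel, had 4154, 2826 and 3272 TPM in short-term lungs and 3649, 2560 and 3934 TPM in PBS lungs (log2 difference 0.02 ± 0.19 SE, limma adjusted p = 0.933). Rpl3, near the catalytic centre, differed by 0.07 (limma adjusted p = 0.660), and the groups of all 3 of these genes overlapped.

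Rps15, the third most abundant member, had 9434, 3962 and 4990 TPM in short-term lungs and 4465, 3327 and 4724 TPM in PBS lungs (log2 difference 0.47 ± 0.27 SE, limma adjusted p = 0.169). Its difference equalled the median of the members, yet short-term replicate 1 alone stood apart and the groups overlapped. Rpl3l (chr17:24727826-24736143) was the gene that fell, with 0.77, 1.07 and 0.60 TPM in short-term lungs and 2.40, 1.34 and 2.56 TPM in PBS lungs (log2 difference -0.76 ± 0.18 SE, limma adjusted p = 0.00668). It rests on levels of at most 2.56 TPM.

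**Figure D4:**
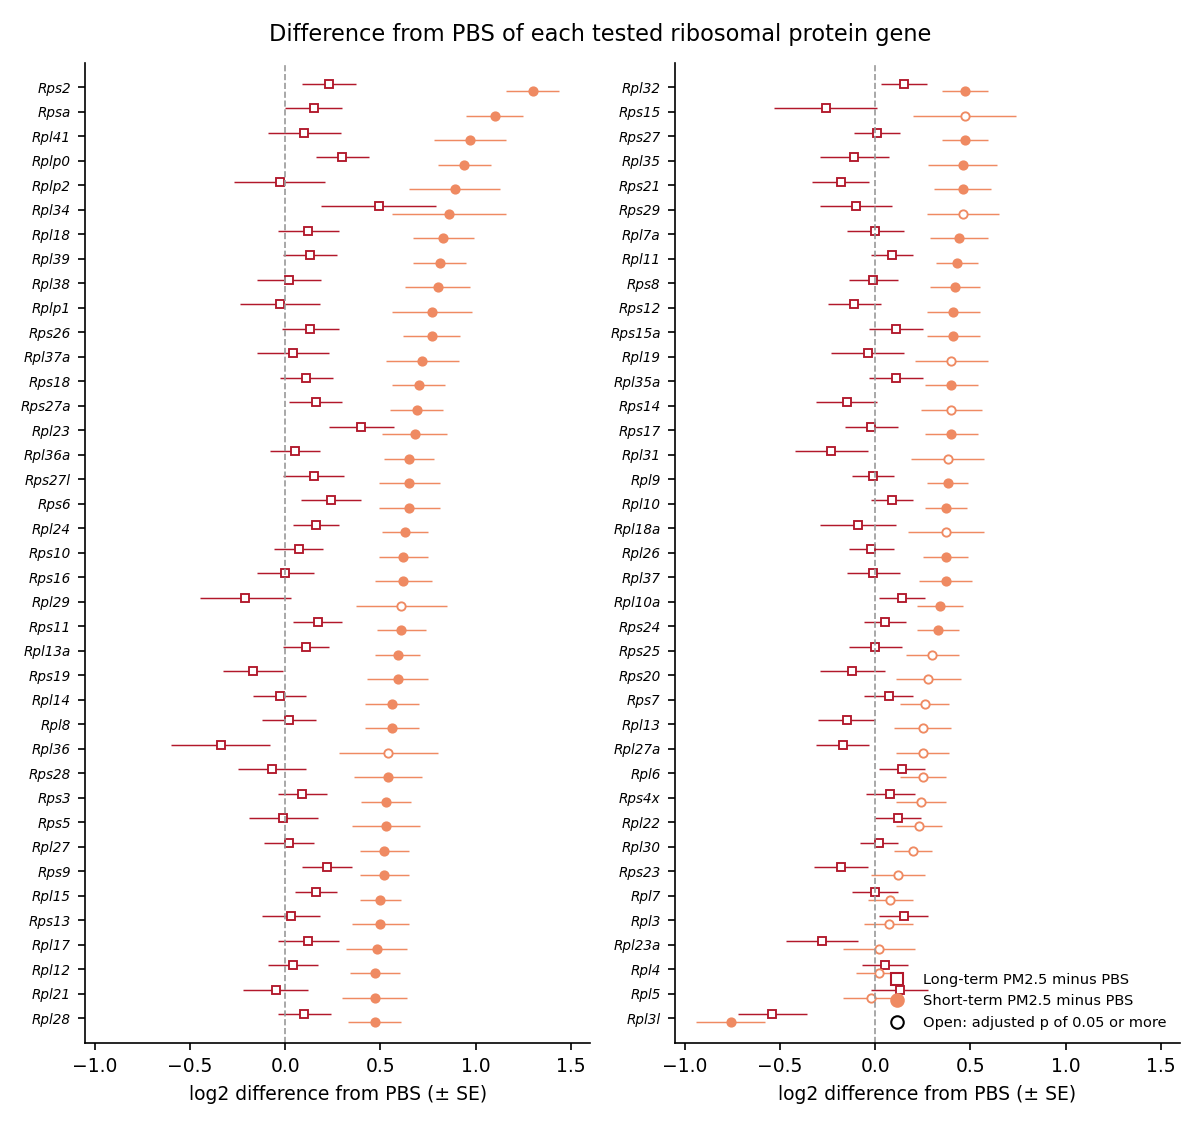
Log2 difference from PBS with its SE for each of the 78 tested genes, ordered by the short-term difference down the left and then the right panel, with long-term PM2.5 as squares and short-term PM2.5 as circles. Filled symbols passed a limma adjusted p of 0.05: 55 short-term symbols are filled, from Rps2 at 1.30 to Rpl3l at -0.76, and 0 long-term symbols.

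Because long transcripts were low in the short-term libraries, the members were set against genes of equal length. The members' transcripts ran from 368 to 3706 bases with a median of 704 bases. The 4194 other tested genes with transcripts of 393 to 1454 bases, the 5th to 95th percentile of the members, had a median log2 difference of -0.02 between short-term PM2.5 and PBS, with 22.9% called higher and 21.3% called lower, against a median of 0.47 for the ribosomal protein genes. The excess of 0.49 was -0.12 under quantile normalization, which gives all libraries 1 distribution. Against the 642 of these genes that were also abundant (mean of at least 111 TPM), whose median was 0.28 with 44.5% called higher, the excess was 0.19. Against the 100 other genes nearest to it in length, 76 of 78 ribosomal protein genes had the higher difference, with a median excess of 0.46. After a correction of each library for transcript length and GC content, 48 of 78 were called higher and 1 lower, against 25.7% and 27.8% of all genes with a length, and 44 of the 55 calls were kept.

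The excess was present at every length where members were frequent. Below 600 bases the median short-term difference was 0.51 over 26 ribosomal protein genes and -0.02 over 504 other genes. From 600 to under 800 bases it was 0.50 over 22 and 0.02 over 1013, from there to under 1000 bases 0.46 over 15 and 0.02 over 933, and up to 1500 bases 0.47 over 11 and -0.05 over 1986. Only 4 members were longer. Within the 78 genes the short-term difference had a Pearson's r of -0.21 and a Spearman's rho of -0.30 with transcript length, 0.25 and 0.33 with GC content, and 0.27 and 0.21 with mean TPM, as a description across genes of the same libraries. For long-term PM2.5 against PBS, 36 of 78 exceeded the median of their neighbours in length, with a median excess of -0.02.

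**Figure D5:**
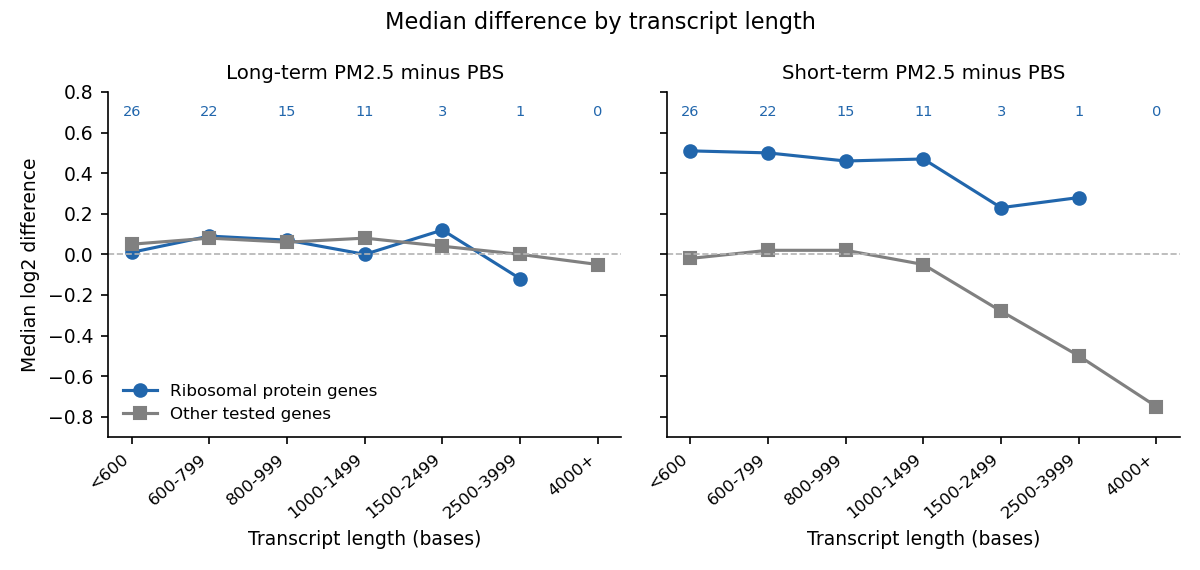
Median log2 difference from PBS by transcript length for ribosomal protein genes (blue circles) and other tested genes (grey squares), with long-term PM2.5 on the left and short-term PM2.5 on the right. Blue numbers count the ribosomal protein genes in each length class. On the right the blue medians are 0.46 to 0.51 below 1500 bases, where the grey ones are -0.05 to 0.02, and the grey line falls to -0.75 at 4000 bases or more.

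Long-term against short-term PM2.5 set the exposures side by side, in the fit of all 3 groups, where the PBS libraries enter the estimate of the spread. Ribosomal protein genes were lower in long-term lungs: by limma 0 of 78 were higher and 52 were lower, against 43.4% and 7.08% of all tested genes. The median log2 difference was -0.44, against 0.11 over other short genes, -0.24 over the short and abundant ones and 0.41 over all tested genes. Libraries did not overlap for 61 genes that were lower, against 9.94% of all tested genes. With these 2 groups fitted alone, 36 members were lower, against 5.22% of all tested genes. Under quantile normalization 20 members (25.6%) were lower, against 21.4% of all tested genes, 17 of them among the 52, and the excess over other short genes was 0.00. Under median-ratio scaling 72 were lower, against 19.7%, and after the correction for length and GC content 70 were lower, against 24.1% of all genes with a length. Leaving out long-term replicate 3 gave 25 lower genes, 24 of them among the 52, and leaving out long-term replicate 2 gave 31. Shares of all tested genes in these 2 runs were not counted. Of the 52 called genes, 16 stayed called in each alternative run.

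Rps2 and Rpsa, the genes of the small subunit given above, again had the largest differences, -1.07 ± 0.14 and -0.94 ± 0.15 (SE, limma adjusted p = 0.000494 and 0.00121). The stalk genes Rplp2, Rplp1 and Rplp0 were also lower in long-term lungs, with log2 differences of -0.92, -0.80 and -0.63 (limma adjusted p = 0.0109, 0.0118 and 0.00515). Rpl36, of the large subunit, had 1332, 1666 and 1212 TPM in long-term lungs and 3691, 1850 and 2446 TPM in short-term lungs (log2 difference -0.88, limma adjusted p = 0.0193). Its groups did not overlap, although its short-term difference from PBS was not called (0.54, limma adjusted p = 0.104). The call of Rpl36 between long-term and short-term lungs was lost with no filter and under quantile normalization. It was also lost without long-term replicate 1 or without long-term replicate 3 (limma adjusted p of at most 0.0666). Rpl5, Rpl3 and Rpl4 differed by 0.15, 0.08 and 0.03 and were not called (limma adjusted p = 0.405, 0.617 and 0.852).

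A further 7 tested genes of ribosomal proteins carry names outside the rule. Of these, 4 rose in short-term against PBS lungs, against 11.7% of all tested genes. For long-term PM2.5 against PBS 0 were called, against 9.51% of all tested genes higher and 1.72% lower. In long-term against short-term lungs 4 were lower, against 7.08% of all tested genes. Rpl36al, the paralog of Rpl36a, had 576, 532 and 391 TPM in short-term lungs and 228, 200 and 203 TPM in PBS lungs (log2 difference 1.23, limma adjusted p = 0.000318). Rpl22l1, the paralog of Rpl22, rose by 0.71 (limma adjusted p = 0.0187), and Rack1, a signalling scaffold on the small subunit, by 0.41 (limma adjusted p = 0.0111). Rpl22 itself, with a longer transcript of 2048 bases, differed by 0.23 and was not called (limma adjusted p = 0.114). After the correction for length and GC content it was called higher, at 0.56 (limma adjusted p = 0.00693).

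Lists of other genes of the pathway held calls in both directions. Of all tested genes, 11.7% were called higher and 40.3% lower in short-term against PBS lungs. Among 17 elongation factors and other TOP mRNAs, 5 rose and 6 fell in short-term against PBS lungs: Btf3 rose by 0.56 (limma adjusted p = 0.00272), Eef1g rose by 0.43 (limma adjusted p = 0.00901), and Eef2, which moves the ribosome along the mRNA, had a log2 difference of -0.57 (limma adjusted p = 0.00377). Under median-ratio scaling the split was 5 higher and 0 lower, against 24.5% and 27.8% of all tested genes. Among 30 genes of ribosome biogenesis 6 rose and 2 fell, and the split was 17 higher and 0 lower under median-ratio scaling. Fbl, the methyltransferase of rRNA, rose by 1.09 (limma adjusted p = 0.00012), and Nhp2, of the pseudouridylation particle, by 1.39 (limma adjusted p = 0.000141). Among 17 regulators of the translation and transcription of ribosomal protein mRNAs 1 (5.88%) rose and 11 (64.7%) fell. After the length and GC correction 3 rose and 4 fell, against 25.7% and 27.8% of all genes with a length. The 3 of this list with the smallest p were Eif4ebp2, Tsc1 and Mycn. Eif4ebp2, a translational repressor inhibited by mTOR, differed by -1.34 (limma adjusted p = 0.000435) and Tsc1, an inhibitor of mTOR, by -1.10 (limma adjusted p = 0.00175). Mycn, listed among the regulators of transcription, differed by -0.84 (limma adjusted p = 0.00262). These values are from the fit without the length and GC correction, and a change in mTOR activity was not tested. For long-term PM2.5 against PBS 0 genes of these 3 lists were called, against 9.51% of all tested genes higher and 1.72% lower.

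Subunits of other large complexes were counted in the same fit, for short-term against PBS lungs. Of all tested genes 11.7% were called higher and 40.3% lower. Of the 642 other short and abundant genes 44.5% were called higher and 13.2% lower. Of the 78 mitochondrial ribosomal proteins 39 rose and 0 fell, with Mrps18b at 1.13 (limma adjusted p = 0.000316). Of the 74 nuclear-encoded subunits of oxidative phosphorylation 55 (74.3%) rose and 0 fell, with Uqcrq of complex III at 1.01 (limma adjusted p = 0.000196). Of the 17 core proteasome subunits 12 (70.6%) rose and 0 fell, with Psmb5 at 0.91 (limma adjusted p = 0.000311). The difference between these lists and the ribosomal proteins was not tested. In long-term against PBS lungs 1, 2 and 0 genes of these lists were called, against 9.51% of all tested genes higher and 1.72% lower.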

How the data were processed

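Total RNA of whole lung was enriched for mRNA with oligo(dT) beads, and the libraries went through DSN treatment before DNBSEQ sequencing, per the labels. The authors deposited a single table of TPM values, with 18875 gene rows and a column per library. HISAT2, Bowtie2, RSEM and DESeq2 are named in the submitters' processing notes without a role or version, with the build GRCm38.p6 for 8 of the 9 samples. Column sums ran from 999999.19 to 1000000.28, so TPM gives no read number, depth is unknown, and intervals for counting error are not given. How TPM was corrected for transcript length by the authors, and the handling of reads shared by gene copies, are also not given in the sources used here.

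All 3 groups were fitted together by limma (version 3.58.1, R 4.3.3) on log2(TPM + 1), leaving 6 residual degrees of freedom, with an intensity trend in eBayes and two-sided tests. P-values were adjusted by Benjamini-Hochberg over the 13991 genes that had 1 TPM or more in 3 or more libraries (threshold 0.05). Fold changes are differences of group means on this scale, which understates changes of low genes. Transcript length and GC content are medians over the protein-coding transcripts of a gene in the GENCODE annotation of GRCm38. They were matched by gene ID, or by symbol where no ID matched, and are missing for 221 tested genes. Positions and start sequences come from RefSeq (GRCm38.p6), and all 81 members were matched to a position. Tables and figures were made in Python 3.11.15, and the fits were tested on simulated data.

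The members, lists and tests were chosen with earlier results of these data known. Named members are the 5 highest and 5 lowest by difference and by level in each comparison, the stalk genes, Rpsa, Rpl5, Rpl11, PCR reference genes, Rps6, Rpl41, Rps27a and paralogs with an L suffix, not all of which are printed. Other members are named after their values were seen. From each list up to 3 genes with the smallest p are named. Alternatives were log2(TPM + 0.1), no filter, a mean of at least 5 TPM, median-ratio scaling, quantile normalization, a spline correction for length and GC content with 5 degrees of freedom each, a replicate block, a fit of only the 2 groups compared, the longest transcript as length, short genes of like abundance, and leaving out each library. Added after seeing the data were TPM rescaled without the 10 most abundant other genes, length from all annotated transcripts, the 100 genes nearest in length, and 3 genes summed with their copies. Alternatives that choose other genes for comparison bear on the excess over short genes alone.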

Additional observations from a re-analysis of the deposited data

Results flagged for a closer look

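The effects of long-term and short-term PM2.5 against PBS differed for 52 of the 78 tested ribosomal protein genes, by the limma test of long-term minus short-term PM2.5 with adjustment over all tested genes, and all 52 were lower in long-term lungs. In this test 43.4% of all tested genes were higher and 7.08% lower. Under quantile normalization 20 members (25.6%) were lower, against 21.4% of all tested genes. Against PBS, 0 members were called for long-term PM2.5, against 9.51% of all tested genes higher and 1.72% lower. For short-term PM2.5, 54 members were called higher and 1 lower, against 11.7% and 40.3%. The PBS libraries enter the test of long-term minus short-term PM2.5 through the spread. With these 2 groups fitted alone 36 members were called lower, against 5.22% of all tested genes, and leaving out a single PBS library gave 47 or 48. Exposure length, number of instillations, total dose and time since the last dose cannot be told apart in this design. No PBS sample matches the schedule of the short-term group.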

How the results depend on the processing

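For long-term PM2.5 against PBS, where 0 members were called, 1 was called with no filter, 1 under quantile normalization, 1 after the length and GC correction, 3 with the 2 compared groups alone, and 0 to 1 leaving out each library. Of all tested genes, 10.2% were higher and 8.27% lower under quantile normalization, and 12.6% and 11.7% after the correction. The median of 0.03 was -0.11 after the length and GC correction and -0.02 to 0.08 leaving out a library. For short-term PM2.5 against PBS, 55 members were called, 20 were called under quantile normalization (19 of the 55 among them) and 33 to 55 leaving out a library, lowest without PBS replicate 2. Under quantile normalization 24.4% of members were called higher, against 24.9% of all tested genes. The median of 0.47 was 0.82 under median-ratio scaling, 0.13 under quantile normalization and 0.35 to 0.57 leaving out a library, and the excess over short genes of 0.49 was -0.12 under quantile normalization, 0.19 against short and abundant genes and 0.31 to 0.59 leaving out a library. In long-term against short-term lungs, 52 members were called, 20 were called under quantile normalization (17 of the 52 among them), 36 with the 2 groups alone and 25 to 54 leaving out a library. Of all tested genes, 21.4% were lower under quantile normalization and 5.22% with the 2 groups alone. Shares of all tested genes were not counted for the runs leaving out a library. Losses among the members in those runs therefore cannot be set against losses over the whole table. The median of -0.44 was -0.83 under median-ratio scaling, -0.21 under quantile normalization and -0.54 to -0.35 leaving out a library, and the excess of -0.55 was 0.00 under quantile normalization, -0.20 against short and abundant genes and -0.66 to -0.40 leaving out a library. Median-ratio scaling moved the median over all tested genes from -0.34 to -0.05 in short-term against PBS lungs, and from 0.41 to 0.08 in long-term against short-term lungs. The cause of these shifts was not tested.

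The balance of calls turned in some lists. For elongation factors and other TOP mRNAs it turned to more higher than lower calls in short-term against PBS lungs, among 5 calls under median-ratio scaling, 9 after the length and GC correction, 6 with the 2 compared groups alone, 7 without PBS replicate 1 and 6 without PBS replicate 3 (6 to 13 leaving out each library), and to more lower calls in long-term against short-term lungs, among 7 under median-ratio scaling, 10 after the correction and 9 without short-term replicate 3 (5 to 12 leaving out each library). For ribosome biogenesis it turned without short-term replicate 2, among 15 calls in short-term against PBS lungs and 13 in long-term against short-term lungs, and for the regulators among 5 calls after the correction in long-term against short-term lungs. Rpl4 had -0.36 (limma adjusted p = 0.0305) after the correction in long-term against short-term lungs, and Rpl5 had 0.33 (limma adjusted p = 0.0428) under median-ratio scaling in short-term against PBS lungs. Over the named members, 1373 of the alternative values kept direction and side of the threshold, 75 lost it, 29 gained it and 2 reversed.

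Libraries with the same number in different groups did not deviate together (correlations of -0.286 to 0.262). With the replicate number as a block, 0, 52 and 48 members were called in the 3 comparisons, in the order given above. Depth is unknown and limits the low members most.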
